A study of Homo sapiens with 4 samples.

Results

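NF-κB is a family of dimeric transcription factors that answer cytokine receptors by 2 routes, and 10 of its genes were examined here: the subunits NFKB1, RELA, REL, NFKB2 and RELB, the inhibitors NFKBIA, NFKBIE and TNFAIP3, the kinase MAP3K14 and the ubiquitin ligase BIRC3. They were picked by name from 19970 protein-coding genes, by a rule that uses no measured value, although earlier results of these data were known when they were picked. Acetylation of lysine 27 on histone H3 (H3K27ac), a mark of active promoters and enhancers, was mapped by ChIP-seq in the triple-negative breast cancer lines MDA-MB-231 and Hs578T, with 2 biological replicates of each. Every culture was starved in optimem for 8 h, given 10 ng/ml of TWEAK, the ligand of the receptor Fn14 (TNFRSF12A), for 48 h, and fixed after a washout of 72 h according to the labels, although the study's text describes a longer one. Both lines carry the treatment, no untreated library was analysed here, and each line is 1 established cell line, so the values describe peaks after TWEAK removal and not a response to TWEAK.

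In the canonical route, inhibitors of the IκB class hold dimers of RelA, c-Rel and p50 in the cytoplasm until the IκB kinase complex marks the inhibitor for degradation. In the non-canonical route, the kinase NIK accumulates, and the NFKB2 product p100 is processed to p52, the partner of RelB. NF-κB switches on several of its own subunits and inhibitors, which closes feedback loops. TWEAK is known to engage both routes. In these lines the study reported, by immunoblot, non-canonical activation after TWEAK without an effect on the canonical route. The non-canonical activation, and that of JNK, was lessened after wash-off. The study also reported, from H3K27ac ChIP-seq, that the enhancer changes driven by TWEAK in these lines were abolished by wash-off.

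The MDA-MB-231 replicate 1 list stood apart, with 209 peaks on chromosomes 1 to 22 and X against 43353 to 46330 in the other 3 lists, and a Jaccard index (bases covered in both lists over bases covered in either) of at most 0.000667 with any of them. The other 3 lists, called the large lists here, had indices of 0.759 to 0.780 with each other. The index was 0.780 between the 2 Hs578T lists, and 0.770 and 0.759 between MDA-MB-231 replicate 2 and those lists. Values below are given in the order MDA-MB-231 replicate 2, Hs578T replicate 1, Hs578T replicate 2 unless stated. Read depth is unknown. Of the marker genes, 6 of 6 mesenchymal genes had a promoter peak in every large list. None of 5 luminal or epithelial genes and none of 3 leukocyte genes had one in any list. Of the 2 endothelial genes, PECAM1 was marked in the large MDA-MB-231 list and in the first Hs578T replicate, and CDH5 in no list. The small list marked no marker gene.

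The sequences upstream of the start sites are shown first, because most of these genes carry matches to the binding motif of their own products. For 8 of the 10 genes, 5 canonical and 3 non-canonical, the 250 bases before the start site were searched on both strands for the 10-base NF-κB consensus. A match was present in 6 of 8 genes, with 10 matches in all, whereas 5.89% of all protein-coding promoters of the same length held one. The upstream sequences of NFKBIE and RELB were not analysed here. The genes without a match were RELA and MAP3K14. A match is a run of letters, and no factor binding was measured. For the feedback genes with little annotated exon in the window, the sequence up to the first annotated exon base is printed, 5′ to 3′ on the strand of the gene, with the matches in capitals. MAP3K14 is printed as the contrast, since it had the widest mean promoter peak and no match.
NFKBIA (hg38, chr14:35404750-35404999, minus strand): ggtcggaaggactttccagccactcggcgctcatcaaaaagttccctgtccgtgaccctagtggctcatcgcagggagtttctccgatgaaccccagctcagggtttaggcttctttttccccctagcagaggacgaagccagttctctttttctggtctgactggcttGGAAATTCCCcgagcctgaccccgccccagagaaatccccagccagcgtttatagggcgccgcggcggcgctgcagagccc
TNFAIP3 (chr6:137867009-137867213, plus strand): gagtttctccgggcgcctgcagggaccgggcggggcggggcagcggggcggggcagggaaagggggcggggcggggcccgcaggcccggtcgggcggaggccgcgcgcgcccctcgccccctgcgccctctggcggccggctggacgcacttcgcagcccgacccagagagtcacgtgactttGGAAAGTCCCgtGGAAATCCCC
BIRC3 (chr11:102317234-102317483, plus strand): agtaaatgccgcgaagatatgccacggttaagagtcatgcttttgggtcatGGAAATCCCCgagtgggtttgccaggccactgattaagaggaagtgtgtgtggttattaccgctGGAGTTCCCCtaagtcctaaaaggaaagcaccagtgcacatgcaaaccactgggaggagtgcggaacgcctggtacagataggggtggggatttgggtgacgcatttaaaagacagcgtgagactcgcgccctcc
MAP3K14 (chr17:45317030-45317270, minus strand): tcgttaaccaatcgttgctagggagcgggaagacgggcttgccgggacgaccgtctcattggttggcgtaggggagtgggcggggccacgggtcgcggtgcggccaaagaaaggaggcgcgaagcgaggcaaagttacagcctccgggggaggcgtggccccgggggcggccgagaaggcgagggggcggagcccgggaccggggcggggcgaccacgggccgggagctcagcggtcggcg

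For the other genes with a match, the 30 bases around it are printed, since annotated exons lie in or next to the window.
NFKB1 (chr4:102501300-102501329, plus strand): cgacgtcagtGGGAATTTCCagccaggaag
REL (chr2:60881518-60881547, plus strand, 2 overlapping matches): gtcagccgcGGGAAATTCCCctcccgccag
NFKB2, upstream match (chr10:102395519-102395548, plus strand): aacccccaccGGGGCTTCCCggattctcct
NFKB2, match next to the start site (chr10:102395674-102395703, plus strand): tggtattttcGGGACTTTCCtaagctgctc

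**Figure D1:**
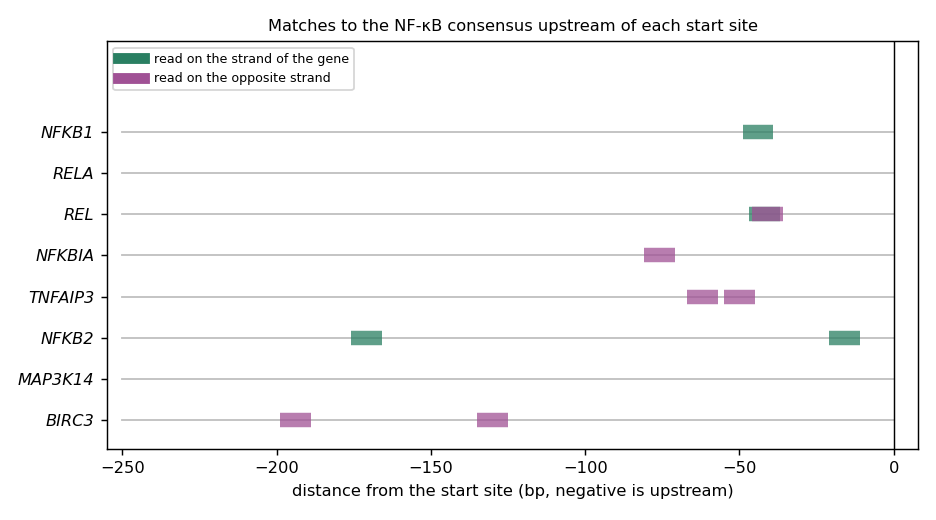
Position of each match to the NF-κB consensus in the 250 bases upstream of the start site (x axis in bp, the start site at 0), with 1 row for each of 8 genes and colour giving the strand on which the consensus reads. The 10 matches lie in 6 genes, RELA and MAP3K14 have none, and 8 of 10 lie within 150 bp of the start site.

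All 10 matches lay inside the gene's own H3K27ac promoter peak in each large list. This follows from their position, since every match lay within 199 bp of the start site. The promoter peaks of these genes reached at least 661 bp upstream. The canonical and non-canonical genes did not separate by the presence of a match, which was found in 4 of 5 and in 2 of 3. The AP-1 motif TGANTCA was present in 0 of 8 windows, against 4.73% of all promoters. The windows were rich in G and C, with a median of 72.8% against 63.2% over all promoters, and BIRC3 and NFKBIA were the lowest at 52.4% and 59.2%. The NFKB1 match depends on the start site. RefSeq places that start 575 bp further downstream, where the 250 bases before it hold no match, so that with RefSeq start sites a match was present in 5 of the 8 genes.

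A promoter peak, a peak touching the 1 kb on either side of the start site, was present at 10 of 10 genes in each large list and at 0 of 10 in MDA-MB-231 replicate 1. The background was 58.1%, 58.2% and 56.4% of all protein-coding genes in the large lists and 0.0601% in MDA-MB-231 replicate 1. The genes therefore differed from one another not in whether a promoter peak was called but in its width and its fold enrichment, the ratio of signal to the local background within a library. Because that ratio depends on the library, it is set beside its percentile among all genes with a promoter peak in the same list. The median widths over those genes were 1792, 1897 and 1803.5 bp. With 2 lists a line the smallest two-sided p of an exact permutation test is 0.333, so no test between the lines was made.

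Among the canonical subunits, NFKB1 (ENSG00000109320.14, chr4:102501330-102617302, plus strand), which encodes p105 and its product p50, had promoter peaks of 2414, 2873 and 2835 bp. Their fold enrichment was 25.1, 19.3 and 11.9, at percentiles 97.3, 93.5 and 83.7. In MDA-MB-231 replicate 2 this was the highest percentile of fold enrichment among the 10 genes, and the width there was below both Hs578T values. RELA (ENSG00000173039.20, chr11:65653599-65663090, minus strand), the main activating subunit, had widths of 2332, 2215 and 2071 bp. Its fold enrichment of 18.7, 15.7 and 10.6 stood at percentiles 90.004, 86.9 and 77.9. REL (ENSG00000162924.16, chr2:60881491-60931612, plus strand), which encodes c-Rel, had widths of 2358, 2546 and 3624 bp. Its fold enrichment of 10.1, 7.73 and 6.06 lay near the middle of the promoters, at percentiles 56.5, 46.9 and 41.2.

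Of the inhibitors, NFKBIA had a wide promoter peak and NFKBIE a weak one. NFKBIA (ENSG00000100906.12, chr14:35401079-35404749, minus strand) encodes IκBα, the inhibitor that NF-κB rapidly resynthesises. Its promoter peak measured 5492, 7949 and 5292 bp, at width percentiles 93.4, 96.3 and 93.1, and reached well into and past the short gene, from -986 to 4505 bp in MDA-MB-231 replicate 2. The larger width in Hs578T replicate 1 came from a single call running to 7132 bp, where the other lists called a separate peak beyond a gap. The fold enrichment of 10.7, 8.16 and 6.55 was ordinary for a promoter, at percentiles 60.6, 50.4 and 46.7. NFKBIE (ENSG00000146232.17, chr6:44258166-44265788, minus strand), which encodes IκBε, had widths of 2562, 2698 and 2343 bp and the lowest fold enrichment of the 10 genes in each large list, 5.03, 3.66 and 3.58, at percentiles 15.9, 8.68 and 9.91. TNFAIP3 (ENSG00000118503.18, chr6:137867214-137883314, plus strand), which encodes A20, a ubiquitin-editing enzyme that restrains signalling to the IκB kinase, had narrow peaks of 1446, 1457 and 1278 bp. Its fold enrichment of 9.71, 8.24 and 6.62 stood at percentiles 53.9, 51.03 and 47.5.

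The non-canonical genes held both the widest and the narrowest promoter peaks. MAP3K14 (ENSG00000006062.18, chr17:45263119-45317029, minus strand), which encodes NIK, had peaks of 10868, 11755 and 12050 bp, at width percentiles 98.7, 98.5 and 98.96, spread about evenly on both sides of the start site. Its fold enrichment was also high, 17.8, 17.0 and 14.3, at percentiles 88.3, 89.9 and 91.4. BIRC3 (ENSG00000023445.17, chr11:102317484-102339403, plus strand) encodes cIAP2, a ligase of the complex that keeps NIK low. Its promoter peak measured 11747, 8127 and 8118 bp, at width percentiles 98.99, 96.4 and 97.3, but its fold enrichment of 6.72, 6.31 and 6.07 stood only at percentiles 30.7, 33.9 and 41.4. The extra width in MDA-MB-231 replicate 2 was a single call from -5011 to 6735 bp, whereas both Hs578T lists called a peak upstream, from -5134 to -2672 bp in replicate 1, apart from the one over the start site. NFKB2 (ENSG00000077150.21, chr10:102394110-102402524, plus strand), which encodes p100 and its product p52, had widths of 3070, 3129 and 2923 bp and a fold enrichment of 16.5, 11.2 and 9.41, at percentiles 85.3, 70.6 and 71.4. RELB (ENSG00000104856.15, chr19:45001461-45038192, plus strand), the partner of p52, had the narrowest peaks of the 10 genes, 1194, 1276 and 585 bp. They began at -85, -98 and -89 bp and so lay almost wholly on the gene side of the start site. Their fold enrichment was nevertheless high, 24.9, 13.3 and 12.1, at percentiles 97.2, 79.5 and 84.5.

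**Figure D2:**
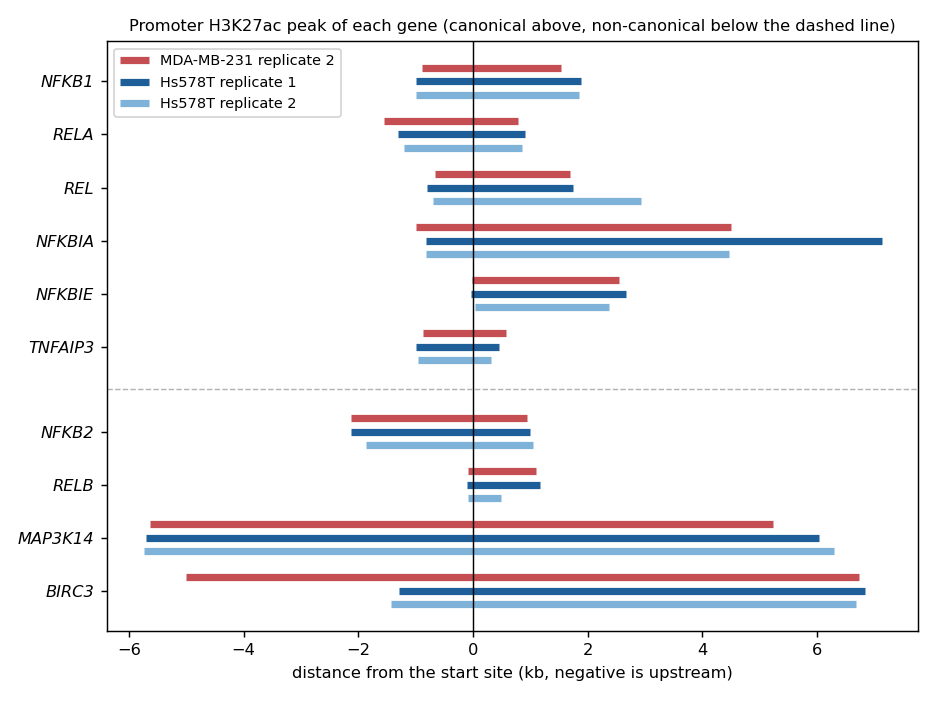
Extent of the promoter H3K27ac peak of each gene in the 3 large lists, as distance from the start site in the direction of the gene (x axis in kb), with canonical genes above and non-canonical genes below the dashed line. MAP3K14 and BIRC3 have the longest bars, RELB the shortest, and the upstream arm of BIRC3 is joined only in MDA-MB-231 replicate 2, where the peak measures 11747 bp.

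Width and fold enrichment did not rank the genes alike. MAP3K14 was above the 88th percentile for both in each large list. BIRC3 and NFKBIA combined wide peaks with low or ordinary fold enrichment, and RELB combined a narrow peak with a high one. Over the 10 genes the median width percentile was 69.9, 72.6 and 76.8, and the median percentile of fold enrichment was 73.0, 60.8 and 59.4. Among 11102 other protein-coding genes with a promoter peak in each large list, the gene whose 6 percentiles (width and fold enrichment over 3 lists) were closest to those of MAP3K14 was KIFC3, at a root mean square difference of 0.987 percentile points. The closest to NFKBIA was GTF2I, at 2.02 points, and the closest to BIRC3 was WDR26, at 2.84 points.

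**Figure D3:**
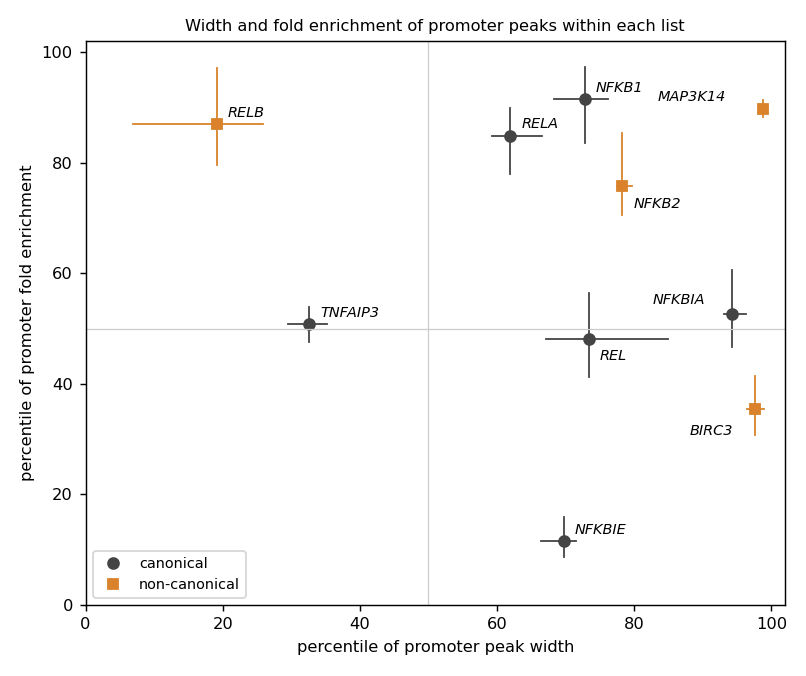
Percentile of promoter peak width (x axis) against percentile of promoter fold enrichment (y axis) for each gene, among all genes with a promoter peak in the same list. Points are means over the 3 large lists and lines run from the lowest to the highest list. MAP3K14 sits at the upper right, BIRC3 and NFKBIA are wide with lower fold enrichment, RELB is narrow with high fold enrichment, and NFKBIE is lowest, at percentiles 8.68 to 15.9.

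The wider surroundings were measured as the window from 100 kb before to 100 kb after each gene body. These windows held 97, 107 and 99 peaks in the large lists and 0 in MDA-MB-231 replicate 1. The share of the window under peaks had a median over the 10 genes of 12.2%, 12.5% and 10.9%, beside 3.96%, 4.37% and 4.002% over all protein-coding genes. MAP3K14 was highest in each large list, with 52930, 60967 and 60653 covered bases, or 20.8%, 24.0% and 23.9% of its window. These shares stood at percentiles 98.2, 98.5 and 98.9 among all protein-coding genes, with or without a promoter peak. That set is wider than the one used for the percentiles of promoter width and fold enrichment. REL was lowest, with 4303, 4419 and 5680 covered bases, or 1.72%, 1.77% and 2.27%. In its window the promoter peak alone made up 54.8%, 57.6% and 63.8% of the covered bases. RELA followed MAP3K14 at 15.3%, 16.4% and 14.1%. NFKBIA (14.6%, 13.4% and 12.2%), NFKB2 (13.1%, 13.6% and 10.99%), BIRC3 (12.8%, 12.7% and 11.95%) and NFKBIE (11.5%, 12.3% and 10.8%) changed order between lists. RELB (5.06%, 5.63% and 4.93%), TNFAIP3 (4.06%, 5.06% and 4.08%) and NFKB1 (3.31%, 3.82% and 4.30%) lay near the median of all genes. For the Hs578T pair the mean was 23.9% ± 0.0874 at MAP3K14, 12.8% ± 0.818 at NFKBIA and 4.57% ± 0.690 at TNFAIP3 (SD, n = 2).

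Neighbouring genes contribute to these shares. The windows of RELA, NFKBIE and RELB each held 10 start sites of other protein-coding genes, that of NFKB2 held 5, those of REL and MAP3K14 held 2, that of BIRC3 held 1 (BIRC2), and those of NFKB1, NFKBIA and TNFAIP3 held none. Of 107 regions other than the genes' own promoters, 25 lay within 1 kb of the start site of another protein-coding gene, inside the window or just outside it. Without peaks at those sites the Hs578T median share fell to 5.69% from 11.7%. The median over all protein-coding genes was not recomputed without such peaks, so the lower value has no matched background. The covered share of NFKBIA was thus reached with no other protein-coding promoter in the window.

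**Figure D4:**
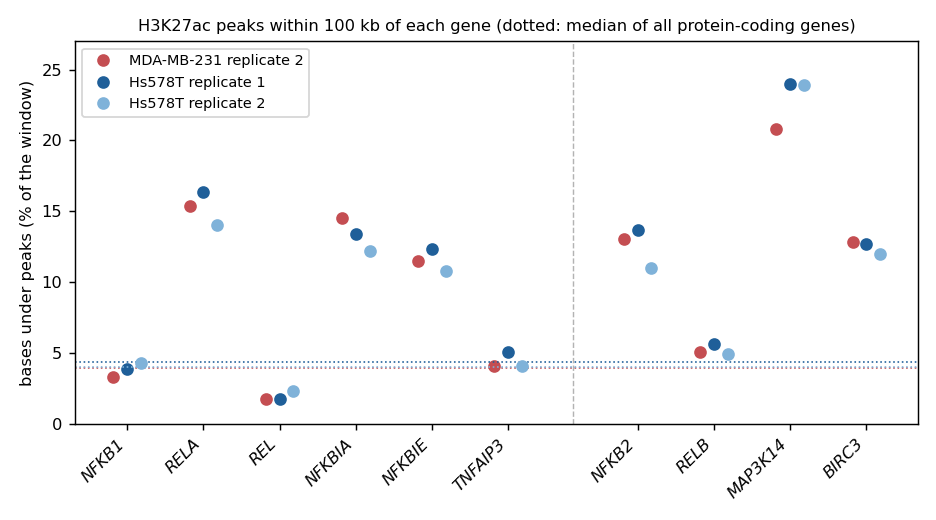
Share of the window within 100 kb of each gene that lies under H3K27ac peaks (y axis in %), with 1 point per large list and dotted lines at the median of all protein-coding genes in each list. MAP3K14 is highest in all 3 lists, at 20.8% to 24.0%, REL is lowest, and NFKB1 and TNFAIP3 lie near the dotted lines at 3.96% to 4.37%.

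Some of the strongest regions lay far from the start sites. At MAP3K14 the region chr17:45368249-45375095, between genes and -58075 to -51229 bp from the start site, had a fold enrichment of 49.6, 50.4 and 37.9. A region on the other side, chr17:45168533-45175343, 141677 to 148487 bp downstream, reached 40.5, 54.2 and 38.1. The strongest peak of the window stood at percentile 99.988, 99.993 and 99.949 of all peaks in its list. Each of these regions lies within 1 kb of the start of a long non-coding RNA, and neither lies at a protein-coding start site. At NFKBIA the region chr14:35363444-35367503, 37246 to 41305 bp downstream and between genes, had a fold enrichment of 20.8, 23.8 and 17.8, above that of the NFKBIA promoter in each large list. It too lies within 1 kb of the start of a long non-coding RNA. At TNFAIP3 the region chr6:137807728-137809568, between genes and -59531 to -57691 bp from the start site, had 9.45, 9.56 and 9.51, and stood at percentiles 73.4, 77.4 and 81.8 of all peaks.

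For each remaining gene, the region with the highest mean fold enrichment other than its own promoter is given. At NFKBIE it lay between genes, at chr6:44233145-44238401, with 13.1, 11.7 and 7.38. At NFKB2 it lay in an intron of GBF1, at chr10:102298035-102303755, with 11.5, 15.8 and 13.9. At NFKB1 it lay in an intron of SLC39A8, at chr4:102428717-102431612, with 8.71, 9.97 and 8.77, below the NFKB1 promoter in each list. At BIRC3 it was the promoter of BIRC2, the neighbouring gene for cIAP1, at chr11:102343485-102349061, with 27.8, 26.3 and 22.2. At RELA it was the promoter of KAT5, at REL that shared by PEX13 and PUS10, and at RELB that of CLPTM1, with 16.5, 10.7 and 10.5, below the RELB promoter in each large list. Peaks carry no information on which gene a region acts upon.

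The same motifs were searched in the central 300 bases of the 56 distal regions of these windows that were called in at least 2 large lists. An NF-κB match was present in 4 of 56 (7.14%), beside 4.14% of 32197 distal regions over the genome, and AP-1 in 15 of 56 (26.8%), beside 30.5%. Neither share was far from its background. These windows lay at the midpoints of regions, whereas the promoter windows were placed at the start site, so the searches are not alike. Bases of a region outside its central 300 were not searched. The 4 regions with an NF-κB match had their midpoints 6302 bp downstream of the start site of TNFAIP3, in its intron, and 71996, 62771 and 50849 bp downstream of those of BIRC3, NFKBIA and MAP3K14. Those at TNFAIP3, BIRC3 and MAP3K14 were weak, with a fold enrichment of at most 3.89, and were not called in Hs578T replicate 2. The strongest region of NFKBIA and both strong regions of MAP3K14 held no NF-κB match in this window. The 30 bases around the match inside TNFAIP3 are printed because it is the only one of the 4 within the gene body of a feedback inhibitor.
TNFAIP3 intron (chr6:137873549-137873578, plus strand): acttagcactGGGGAATTCCagatgttact

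**Figure D5:**
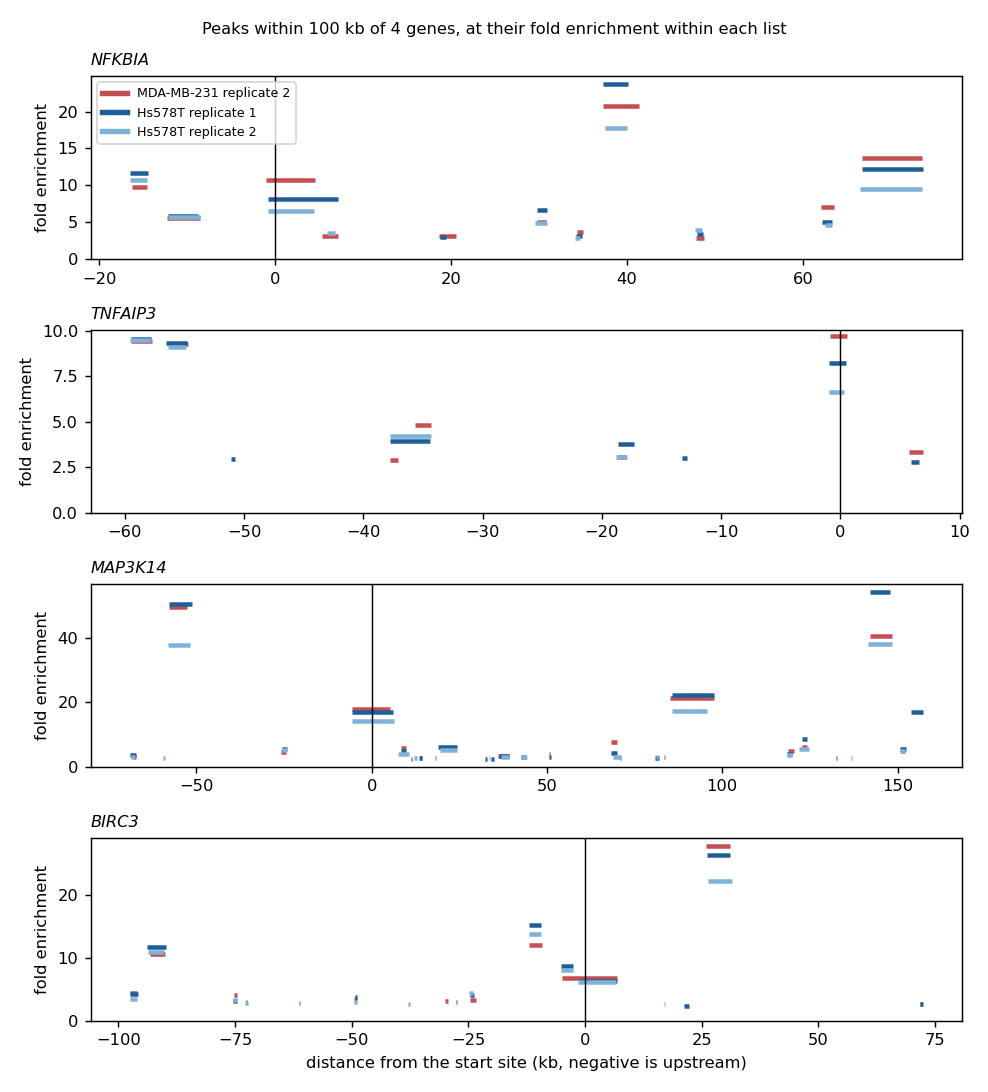
Peaks within 100 kb of NFKBIA, TNFAIP3, MAP3K14 and BIRC3, drawn from their start to their end as distance from the start site (x axis in kb) at their fold enrichment (y axis, a ratio within each list, linear), coloured by list. MAP3K14 has regions near 50-fold on both sides, and the strongest NFKBIA and BIRC3 regions lie away from their own promoters. At the right edge of the MAP3K14 window only the Hs578T replicate 1 peak reaches inside, and the other 2 lists hold an overlapping peak just outside.

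When the peaks of the large lists were merged, the windows held 117 regions, of which 83 (70.9%) were called in each large list, beside 74.8% of 50576 regions over the genome. The other 34 were called in 1 or 2 lists, and their fold enrichment ran from 2.29 to 3.89, whereas the regions in each large list had a median of 5.27 for their lowest value. Of these, 12 were in Hs578T replicate 1 alone, 8 in Hs578T replicate 2 alone, 5 in MDA-MB-231 replicate 2 alone, 6 in MDA-MB-231 replicate 2 and Hs578T replicate 1, and 3 in both Hs578T lists. The regions shared by both Hs578T lists and missing in MDA-MB-231 replicate 2 were thus fewer than those found in a single Hs578T list. The MAP3K14 window held 14 of the 34 and the BIRC3 window 7. RELB had none among its 8 regions. One of the regions in 2 lists lay in an intron of TNFAIP3 at chr6:137872976-137874147, with 3.32 in MDA-MB-231 replicate 2 and 2.81 in Hs578T replicate 1.

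Between the lines, the covered bases in MDA-MB-231 replicate 2 were below both Hs578T lists at 4 of 10 genes, against a background of 47.4% of genes, and above both at 2 of 10, NFKBIA and BIRC3, against 19.3%. NFKBIA had 29639 covered bases in MDA-MB-231 replicate 2, against 27217 and 24861 in the Hs578T lists. BIRC3 had 28501 against 28172 and 26530. The promoter peak was narrower in MDA-MB-231 replicate 2 than in both Hs578T lists at 3 genes (background 35.8%) and wider at 2, RELA and BIRC3 (background 30.1%). The number of peaks in the window was below both Hs578T lists at 3 genes (background 24.2%) and above both at 1, NFKBIA (background 11.6%). These counts are near the background of the lists, and MDA-MB-231 is represented by a single usable list. The Jaccard index was also taken within each window. At 8 of 10 genes that index was at least as high between MDA-MB-231 replicate 2 and an Hs578T list as between the Hs578T lists. A difference between the lines could thus not be told apart from one between replicates.

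The canonical and non-canonical genes were then set side by side. The median share of the window under peaks was 7.78%, 8.68% and 7.53% over the 6 canonical genes and 12.9%, 13.2% and 11.5% over the 4 non-canonical genes. The groups overlapped, with RELA above NFKB2 and BIRC3 in each large list and RELB below NFKBIA and NFKBIE. In covered bases the canonical medians were 17170.5, 18822.5 and 17956, and the non-canonical 27852, 28303 and 24719. The median promoter width was 2386, 2622 and 2589 bp over the canonical and 6969, 5628 and 5520.5 bp over the non-canonical genes. This difference in width rested on MAP3K14 and BIRC3. In Hs578T it was -2968.75 bp (canonical minus non-canonical, SD 52.7, n = 2), -420.5 bp without MAP3K14, and 712.25 bp in the opposite direction when only the subunits were compared. In MDA-MB-231 replicate 2 the same values were -4583, -684 and 226 bp. The difference in covered share, -5.17, -4.48 and -3.95 points, kept its sign in each large list under each of these choices. With BIRC3 counted as canonical it shrank to -1.55, -1.33 and -0.236 points, and the width difference to -656, -431 and -88 bp. Genes are not replicates of a pathway, so no test was made over them.

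Of 21 other genes of the pathway, 20 had a promoter peak in each large list and 0 in the small list. The exception in the large lists was NFKBID, which encodes an atypical IκB protein. The background was 58.1%, 58.2% and 56.4% of all protein-coding genes in the large lists and 0.0601% in the small list. The 6 other non-canonical genes had a median promoter width of 3521.5, 3689 and 3571 bp, and the 14 marked canonical genes 1942.5, 1901.5 and 1705 bp. BIRC2, TRAF2, which carries the cIAP ligases to NIK, and TNFRSF12A, the TWEAK receptor, were the widest of the non-canonical list. TNFRSF12A had 4667, 4809 and 4886 bp and a fold enrichment of 41.5, 41.0 and 29.8. On the canonical list TNIP1, which encodes a binding partner of A20, had 10390, 9715 and 9885 bp, narrower than MAP3K14 in each large list. IKBKG, also on the canonical list, had 8851, 9880 and 9202 bp, wider than TRAF2 at 6154, 5890 and 6198 bp. CHUK, which encodes the kinase that NIK activates, had 1220, 1241 and 1111 bp, below the median of all promoters. It was counted as canonical, as a subunit of the IκB kinase complex. Counted as non-canonical instead, it brought the medians to 2376, 2569 and 2256 bp for the non-canonical and 2047, 2217 and 1953 bp for the canonical genes.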

How the data were processed

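H3K27ac ChIP-seq peak lists of 4 libraries were used, 2 biological replicates each of MDA-MB-231 and Hs578T, grouped by their titles. Per the labels and methods, the authors trimmed reads with Trimmomatic, mapped them to hg38 with Bowtie2, called peaks per library with MACS2 against input, and removed blacklisted regions. Versions and settings are not given in the sources used here. The deposited columns hold a score (10 times −log10 q), the authors' fold enrichment as a ratio over local background, and the deposited −log10 p-value and −log10 q-value. The largest q-value per list was 0.0827 to 0.0994. Peaks called per library move with depth, which is unknown here, so for promoter peaks the percentile of fold enrichment within a list is given beside the ratio. Widths, covered bases and numbers of peaks were compared between lists directly. The strongest other region of each gene was chosen by its mean ratio over the large lists.

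Genes and Ensembl canonical start sites came from GENCODE 44. All 71 sequence names of the lists were found in the reference and no peak passed the end of its sequence. A promoter peak overlapped the window from 1 kb before to 1 kb after a start site by at least 1 bp, and the one with the largest overlap was kept. Overlapping peaks of the large lists were merged into regions. Scripts (Python 3.11.15, numpy 2.4.6) were tested on simulated intervals. No test was made. Alternatives covered the peak threshold, window, flank, start site, grouping and each replicate left out. Upstream sequence was read from hg38 for the 8 genes in the RefSeq promoter table, and is not reported here for the other 2. RefSeq start sites came from that table. The members and gene lists were chosen with earlier results of these data known, and the 10 genes were all named, with the strongest other region of each.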

Additional observations from a re-analysis of the deposited data

How the results depend on the processing

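No paired analysis was possible because the results come from no test. A value counted as moved when it changed by more than the SD of the 2 lists of a line, or, for counts and single lists, by more than 1.5 times. In MDA-MB-231 one list is at 0, so that SD exceeds any possible fall and the rule says nothing about stability in that line. Leaving out MDA-MB-231 replicate 1 or 2 changed that line's mean of 5 genes with a promoter peak to between 0 and 10 and its mean of 48.5 peaks to between 0 and 97, and the 2 Hs578T lists gave 10 each. The cause of the shifts below was not tested. With the strongest 50% of peaks, the peaks in the windows fell from 48.5 to 27.5 (MDA-MB-231) and from 103 to 57 (Hs578T), and with a flank of 10 kb to 15.5 and 34.5. In Hs578T the median share covered (11.7%) became 8.37%, 17.8% with a flank of 10 kb and 5.69% without other coding start sites, and the summed covered bases (235948) became 184146, 82806.5 and 167226 in that order, and 151683 with a flank of 50 kb.

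The canonical minus non-canonical difference in share (Hs578T, -4.22 points) was -3.78 at −log10 q of at least 2, -5.46 for the strongest 50%, -2.52 and -9.91 with flanks of 50 and 10 kb, -5.14 without other coding start sites, -0.783 with BIRC3 counted as canonical, and, in choices made after seeing the data, -3.74 without MAP3K14 and -4.74 for subunits. In covered bases (-8121.75) it was -10635.8 for the strongest 50%, -2120 and -3841.25 with flanks of 50 and 10 kb, and -1723.5 with BIRC3 as canonical. In promoter width (-2968.75 bp) it was -2883.75 for the strongest 50%, -259.5 with BIRC3 as canonical, -420.5 without MAP3K14 and reversed to 712.25 for subunits. In MDA-MB-231 replicate 2 the width difference (-4583 bp) was -656, -684 and, reversed, 226 in those last 3 choices. With RefSeq start sites, 5 genes in place of 6 had an NF-κB match. In Hs578T, 25 of the values for the comparisons stayed within the limits, 24 moved and 1 reversed. For single genes, 24 stayed within them and 36 did not. Taken alone with the 1.5 times limit, the large MDA-MB-231 list kept 36 values for the comparisons within it, 13 moved and 1 reversed. For single genes, 39 stayed within it and 21 moved. The median share of that list (12.2%) became 22.1% with a flank of 10 kb and 5.38% without other coding start sites. Counting CHUK as non-canonical, a choice made after seeing the data, left the other non-canonical genes with the wider median in each large list.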

Other observations

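Among pathway genes outside the 10, the promoter peak of BCL3, which encodes an atypical IκB protein, was 8463 bp wide in the large MDA-MB-231 list, against 2893 and 2268 bp in the Hs578T lists. That of NFKBIZ, another atypical IκB gene, was 4373 bp wide in the large MDA-MB-231 list, 16280 bp in Hs578T replicate 1 and 3844 bp in Hs578T replicate 2. Both were named after their values were seen. Whether a single call joined peaks that the other lists split, as at NFKBIA and BIRC3, was not examined for either gene. The promoter peak of PECAM1, a marker of endothelium, was 7148 bp wide in the large MDA-MB-231 list and 374 bp in Hs578T replicate 1, and none was called in Hs578T replicate 2. CDH5, the other endothelial marker, had no promoter peak in any list.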
